A study of Mus musculus with 24 samples.

Results

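Sfrp1, Sfrp2, Sfrp4, Sfrp5, Sox17, Cdkn2a, Mgmt, Gata5 and Rassf1 are genes whose human counterparts are often silenced by promoter methylation in colon cancer. They were taken as a list, and every Cdx2 ChIP peak of mouse colon organoids whose summit lay in their gene bodies or within 50 kb to either side was collected, in mm10 with GENCODE vM21 gene models. These 9 of 21938 protein-coding genes held 38 of 206283 peaks, which overlapped into 11 of 61454 consensus regions. The rule takes the members by name, and they were proposed with earlier results of these data known.

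Cdx2 was profiled by ChIPmentation, a chromatin immunoprecipitation in which the transposase Tn5 adds the sequencing adapters on the beads, in proximal and distal colon organoids with 3 independent mouse-derived cultures per group. WENR-plus medium supplies the niche factors that keep colon stem cells dividing, and WENR-minus medium lacks them. All groups carried a heterozygous Cre-inducible BRAFV600E allele and a heterozygous tdTomato reporter, were normal colon epithelium in origin and had been in WENR-plus culture for 4 months. WENR-minus organoids were plated for 2 days and then held for 3 days without the factors, which the labels' protocol text calls ENSW-minus medium. Each site in each medium gave 3 Cdx2 libraries, 12 in all, and the 12 matched input libraries, the controls of the authors' peak calling, were not analysed here. The lists ran from 5608 to 42192 peaks. In WENR-plus medium every proximal list, at 13592 to 42192 peaks, was longer than any distal list, at 5608 to 13371. In WENR-minus medium proximal lists held 11409 to 27921 peaks and distal lists 7895 to 21040, so that the ranges overlapped. In that medium each proximal list was longer than the distal list of the same replicate number. A list holds no sites below the authors' q threshold of 0.01, so that a missing peak does not show that Cdx2 was absent.

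Cdx2 is the homeobox transcription factor that sets and maintains intestinal identity, and it binds AT-rich sites at promoters and at distant elements. Promoter silencing in colon cancer adds methyl groups to CpG dinucleotides, usually in CpG islands over start sites. The Sfrp genes encode secreted proteins that bind Wnt ligands and dampen Wnt signalling, Sox17 encodes a transcription factor that restrains β-catenin, Cdkn2a encodes the cell cycle inhibitor p16Ink4a and, from a separate upstream start, the p53 activator p19Arf, Mgmt encodes a DNA repair enzyme, Gata5 encodes an endodermal transcription factor, and Rassf1 encodes a Ras-association scaffold.

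The bases at the summits are shown because the sites differ in whether they hold the Cdx2 motif, as Cdx2 regions do in general. For each member with a region, the 101 bases centred on the summit of its region called in the most libraries are printed on the plus strand of mm10, in lower case, with matches on either strand to the Cdx2 motif in capitals, searched as TTTATGA, as its variant TTTATGG, as the variant TTTATTA and as the variant TTTATTG (a match on the minus strand appears as its reverse complement).
Sfrp2, chr3:83803112-83803212: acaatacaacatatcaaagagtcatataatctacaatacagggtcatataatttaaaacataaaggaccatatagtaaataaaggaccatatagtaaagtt
Sfrp5, chr19:42166421-42166521: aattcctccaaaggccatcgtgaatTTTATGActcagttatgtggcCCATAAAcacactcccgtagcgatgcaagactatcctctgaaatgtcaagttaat
Sfrp4, chr13:19638059-19638159: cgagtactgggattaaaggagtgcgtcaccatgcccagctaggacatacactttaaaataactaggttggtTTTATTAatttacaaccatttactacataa
Cdkn2a, chr4:89282855-89282955: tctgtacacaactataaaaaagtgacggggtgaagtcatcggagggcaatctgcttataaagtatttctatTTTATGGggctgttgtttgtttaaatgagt
Rassf1, chr9:107516327-107516427: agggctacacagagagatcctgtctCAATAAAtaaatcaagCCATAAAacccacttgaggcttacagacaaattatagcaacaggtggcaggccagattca
Sox17, chr1:4538565-4538665: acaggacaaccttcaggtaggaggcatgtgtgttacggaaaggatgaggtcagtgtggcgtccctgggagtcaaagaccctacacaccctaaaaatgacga
Gata5, chr2:180343362-180343462: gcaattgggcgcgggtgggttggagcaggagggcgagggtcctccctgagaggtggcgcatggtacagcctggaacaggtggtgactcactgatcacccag
The Sfrp5 and Rassf1 sites held 2 matches each, the Sfrp4 and Cdkn2a sites 1 each, and the Sfrp2, Sox17 and Gata5 sites none. Over all 11 regions 5, or 45.5%, had a match within 50 bp of the summit, beside 57.1% of all 61454 regions. Within 100 bp the counts were 9 regions, or 81.8%, beside 78.5% of all regions, and the core TTTAT, a search added after the data were seen, was within 50 bp in 7 regions, or 63.6%, beside 75% of all. The member regions had a median GC content of 41.6% over the 101 bases, where the median of all regions was 34.7%.

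The loci of the 9 genes together held fewer Cdx2 regions per 100 kb than the 21 chromosomes did. A region was present in the loci of 7 of the 9 members, and 84.5% of all protein-coding genes had a region in the same window. A region called in at least 6 of the 12 libraries was present for Sfrp2 and Sfrp5 alone, or 2 of 9 members beside 44.6% of all genes, and no member had one called in all 12 libraries, beside 12.9%. The loci together spanned 1242.8 kb and held 0.885 regions per 100 kb, where the 21 chromosomes held 2.25. Mgmt, with no region, made up 336 kb of that span. The median member had 0.94 regions per 100 kb, between the lower quartile of 0.876 and the median of 1.88 over all genes. These differences are of 9 genes taken by name and were not tested, and the shares of genes are not adjusted for locus length. Of the 11 regions 7 were called in at least 2 libraries, beside 57.8% of all regions, and 2 were called in at least 6, beside 19.9%, so that in recurrence the member regions were near the background.

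**Figure D1:**
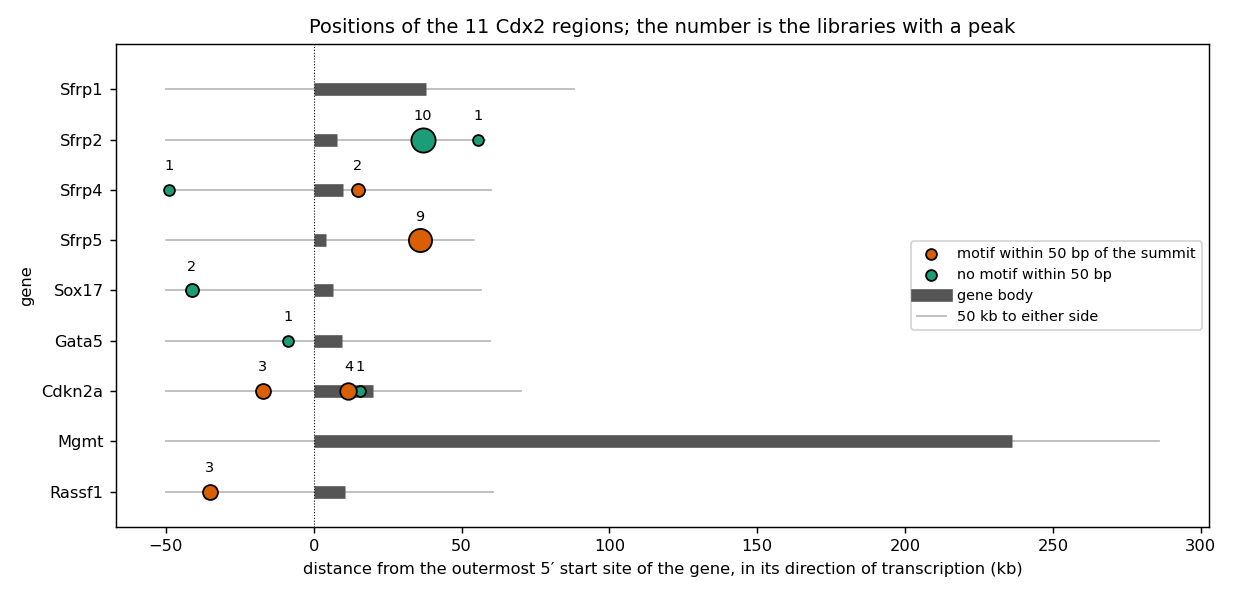
Position of the 11 Cdx2 regions relative to the outermost 5′ start site of each gene, in kb along the direction of transcription, with the gene body as a thick bar and 50 kb to either side as a thin line. Circle area and the number give the libraries with a peak of 12, and the colour shows whether a motif lay within 50 bp of the summit. Sfrp1 and Mgmt have no region, and the most recurrent regions, at Sfrp2 and Sfrp5, lie beyond the 3′ ends of the genes.

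Distances to the nearest site were longer for the median member than for the median gene. The start site of the median member was 35.8 kb from the nearest region and 132 kb from the nearest region called in at least 6 libraries, and the medians over all genes were 13.6 kb and 72.4 kb. Cdkn2a was the closest at 0.713 kb and Mgmt the farthest at 156 kb. Sfrp1 was 81.8 kb from its nearest region. For regions in at least 6 libraries, Rassf1 at 476 kb and Mgmt at 421 kb lay at the 94.6 and 93.1 percentiles of all genes, whereas Sfrp5 at 35.8 kb and Sfrp2 at 36.3 kb lay at the 33.1 and 33.5 percentiles.

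**Figure D2:**
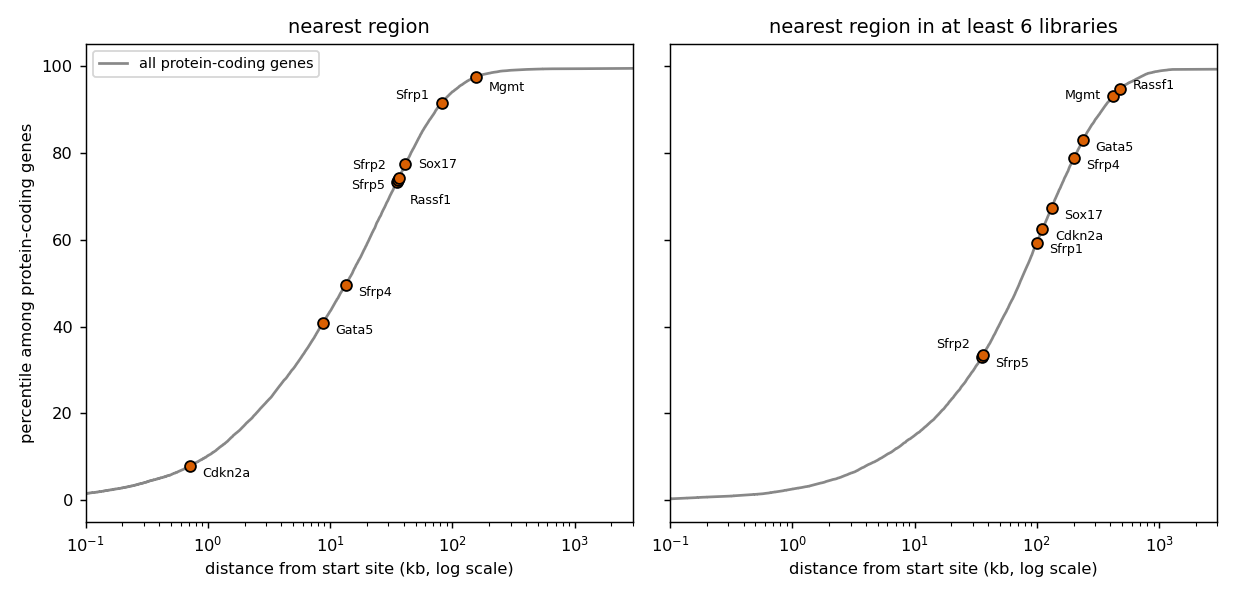
Percentile of each member among all protein-coding genes (vertical axis) by the distance from its start site in kb, on a log axis, to the nearest region (left) and to the nearest region called in at least 6 libraries (right). The grey curve is all protein-coding genes, and on the right only Sfrp2 and Sfrp5 lie below the median gene, at 36.3 and 35.8 kb.

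Promoter peaks, with a summit within 3 kb of an annotated start site, were found for 1 of the 9 members, Cdkn2a, beside 22.7% of all protein-coding genes. No member had a promoter peak in at least 6 libraries, beside 6.49% of genes. The Cdkn2a promoter region, chr4:89282631-89283171, lay 713 bp upstream of the inner start site at 89282192, from which the p16Ink4a transcript begins, and inside the intron of the longer transcript. It was 11748 bp downstream of the outer start site at 89294653, from which the p19Arf transcript begins, and no promoter peak was found at that start. The region was called in 1 WENR-plus and 2 WENR-minus libraries of proximal organoids and in 0 and 1 of distal organoids. The summit stood at 11 reads in proximal WENR-plus replicate 2, 16 reads in proximal WENR-minus replicate 1, 14 reads in proximal WENR-minus replicate 3 and 16 reads in distal WENR-minus replicate 3, where reads are the pileup recovered from the deposited fold and p-value. The calls stood at 8.42, 38.1, 40.7 and 50.2 percentiles of fold enrichment in their own lists in the same order. Proximal WENR-minus replicate 3 had a further peak in the region with 11 reads. The median percentile of the region was 38.1, beside 36.6 for all regions called in 2 to 5 libraries. Presence passed the test neither by site (Fisher's exact test, p = 0.545, Benjamini-Hochberg adjusted p = 0.896) nor by medium (p = 0.545, adjusted p = 1). The test treats the 12 libraries as separate, although the organoids came from 3 mice, and the labels do not say which libraries share a mouse. In lists shortened to equal length the region was called in 1 library, distal WENR-minus replicate 3.

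The CpG content of the Cdkn2a starts differed more than that of any other pair of windows of a member. RefSeq promoter windows of 300 bases, from 250 before to 50 after a start site in GRCm38, the assembly of mm10, were at hand for 6 members and 9 starts. The pair for Cdkn2a is printed 5′ to 3′ on the minus strand, with each CpG in capitals, since the peak lies beside the start with fewer CpG.
Cdkn2a, outer start, chr4:89294570-89294869: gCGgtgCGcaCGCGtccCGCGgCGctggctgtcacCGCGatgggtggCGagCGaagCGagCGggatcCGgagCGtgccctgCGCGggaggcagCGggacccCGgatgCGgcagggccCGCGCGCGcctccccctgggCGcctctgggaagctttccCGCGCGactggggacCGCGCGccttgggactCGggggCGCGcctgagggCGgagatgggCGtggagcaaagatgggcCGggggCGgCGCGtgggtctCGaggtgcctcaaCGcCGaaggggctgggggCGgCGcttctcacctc
Cdkn2a, inner start, chr4:89282143-89282442: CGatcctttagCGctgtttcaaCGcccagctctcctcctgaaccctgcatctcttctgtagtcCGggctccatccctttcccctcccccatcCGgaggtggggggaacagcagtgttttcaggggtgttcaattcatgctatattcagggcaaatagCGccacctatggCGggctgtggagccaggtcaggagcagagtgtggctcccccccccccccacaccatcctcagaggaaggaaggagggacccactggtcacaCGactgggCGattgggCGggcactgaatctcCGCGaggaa
The outer window held 45 CpG, more than 97.5% of the 21262 windows of protein-coding genes, and the inner window held 12, more than 47.2%. The windows of the other members held 27 CpG at both Rassf1 starts, 26 at Gata5, 22 at Sfrp2, 20 and 3 at the starts of Mgmt and 15 at Sfrp5. The median over the 9 windows was 22 CpG and 66.3% GC, and over all windows 13 CpG and 56.3% GC. None of the 9 windows held a motif, where 12% of all windows did.

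**Figure D3:**
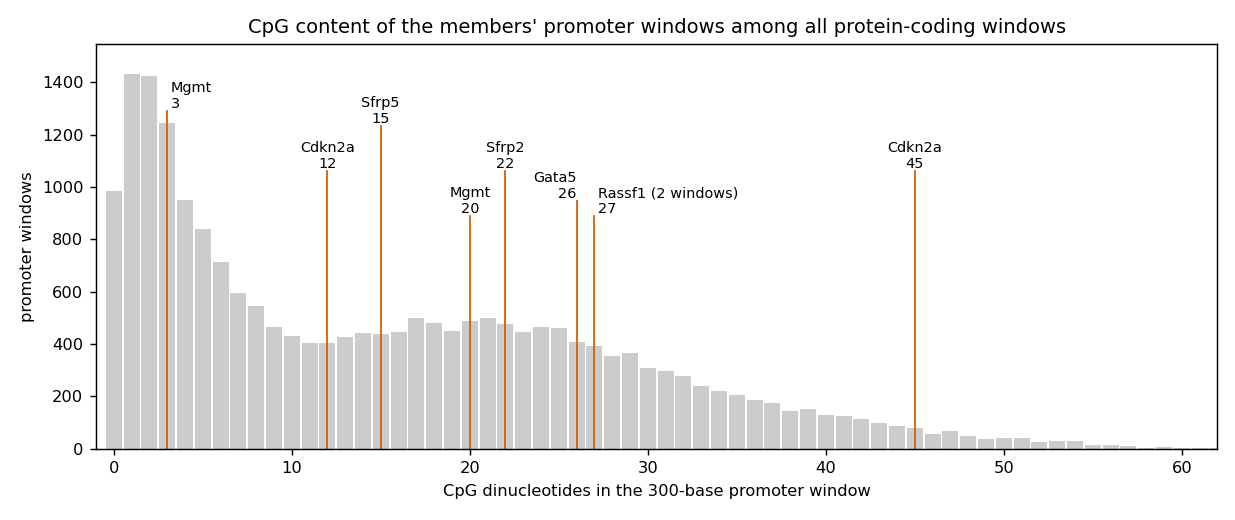
Number of CpG dinucleotides in the 300-base promoter windows of protein-coding genes (grey bars count windows) with the 9 windows of 6 members marked by orange lines. The windows of Cdkn2a stand at 45 and 12 CpG, and the median of all windows is 13.

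The same presence over the 12 libraries as at the Cdkn2a promoter was found at the promoters of 2 other genes, Nr1i2, which encodes the xenobiotic receptor PXR, and Slc26a2, a sulfate transporter, among 409 genes with a promoter peak in 4 libraries. The mean fold percentile over the 4 libraries was 34.3 for Cdkn2a, 12.1 for Nr1i2 and 5.03 for Slc26a2.

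The other Cdkn2a regions were called in fewer libraries. The region chr4:89311560-89311905 lay 797 bp from the start site of the neighbouring cell cycle inhibitor Cdkn2b, upstream of Cdkn2a, and was called in 2 proximal WENR-minus libraries and 1 distal WENR-minus library but in no WENR-plus library, with 13, 11 and 14 reads in proximal WENR-minus replicates 2 and 3 and distal WENR-minus replicate 1 (medium, Fisher's exact test p = 0.182, adjusted p = 1). It was called in 0 libraries in lists shortened to equal length, and in 0 at a −log10 q of at least 5. A further region 3.05 kb downstream of the inner start was called with 13 reads in proximal WENR-minus replicate 1. Counted over the whole locus, a unit added after these values were seen, Cdkn2a had a peak in 5 of 6 WENR-minus libraries and in 1 of 6 WENR-plus libraries (Fisher's exact test p = 0.0801, adjusted p = 1 over 16643 loci), a difference that did not pass the test. None of the 6 loci with a peak in at least 2 libraries reached an unadjusted p of 0.05 by medium or by site, beside 0.0901% and 4.29% of all such loci.

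The Sfrp family held both recurrent regions. Sfrp2 had a region of 645 bp at chr3:83802885-83803529, in intergenic sequence 36.3 kb downstream of its start site, which is the nearest start of a protein-coding gene. It was called in all 6 proximal libraries, 2 distal WENR-plus libraries and 2 distal WENR-minus libraries. The summit had 32, 36 and 15 reads in proximal WENR-plus replicates 1 to 3 and 20, 25 and 20 reads in proximal WENR-minus replicates 1 to 3. It had 21 and 17 reads in distal WENR-plus replicates 1 and 2, and 27 and 14 reads in distal WENR-minus replicates 1 and 2. The third replicate of both distal groups had no peak, and where called, the site ranked at a median percentile of 76, from 14 in distal WENR-minus replicate 2 to 90.2 in distal WENR-minus replicate 1. Where a peak was called, the reads of the distal libraries lay within the range of the proximal ones except for 1 library with 14. Reads were not scaled for depth or background. Presence passed the test neither by site (Fisher's exact test p = 0.455, adjusted p = 0.889) nor by medium (p = 1, adjusted p = 1). No motif lay within 100 bp of its summit, although the core TTTAT did, and its 101 bases had a GC content of 25.7%. Another Sfrp2 region, in an intron of Gm7115 at 55.1 kb, was called with 15 reads in proximal WENR-minus replicate 2 alone.

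Sfrp5 had a region of 573 bp at chr19:42166180-42166752, 35.8 kb downstream of its start site. It lay in an intron of Zfyve27, an endoplasmic reticulum protein gene, and was 2520 bp from the Zfyve27 start site, which makes it a promoter region of that gene and not of Sfrp5. The summit had 29, 32 and 18 reads in proximal WENR-plus replicates 1 to 3 and 26 reads in each of proximal WENR-minus replicates 1 and 2. It had 21 and 12 reads in distal WENR-plus replicates 2 and 3, and 19 and 18 reads in distal WENR-minus replicates 1 and 3. Proximal WENR-minus replicate 3, distal WENR-plus replicate 1 and distal WENR-minus replicate 2 had no peak. The site ranked at a median percentile of 79.7, from 27 to 91.6, and of the 9 peak summits 7 had a motif within 50 bp, with TTTATGG 1 bp and TTTATGA 22 bp from the summit of the region. Presence passed the test neither by site nor by medium (Fisher's exact test p = 1 and adjusted p = 1 for both). The distal libraries with a peak had 12 to 21 reads and the proximal ones 18 to 32, so that the ranges overlapped. These reads are not scaled for depth or background, and libraries with no call are left out.

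Reads at the 2 recurrent regions have a floor, since no called peak can lie below the weakest call of its library. The fewest reads of any called peak were 8 to 11 over the 12 libraries, at a genome background of 1.25 to 2.72 reads. In regions called in 6 to 11 libraries the median percentile was 77.8 for these 2 and 61.6 for all 10146 such regions. Over all regions the median percentile rose with recurrence, from 25.1 in 1 library to 87.8 in 12. The 2 member regions, in 10 and 9 libraries, stood in the upper part of the range of 6 to 11.

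**Figure D4:**
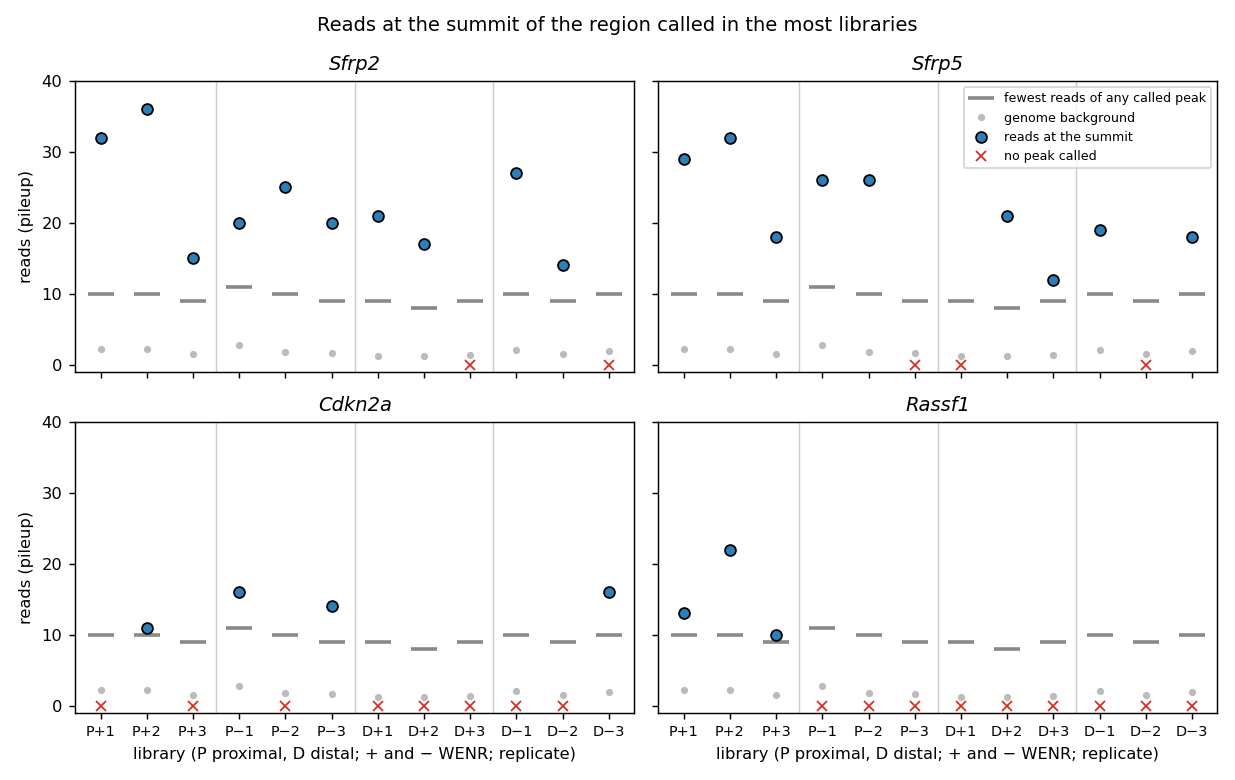
Reads at the summit (pileup, vertical axis) in each of the 12 libraries for the region called in the most libraries at Sfrp2, Sfrp5, Cdkn2a and Rassf1. Blue circles are called peaks, red crosses at 0 mark libraries with no called peak and are not a measured value, grey bars give the fewest reads of any called peak in the library and grey dots its genome background. Sfrp2 and Sfrp5 reach 36 and 32 reads, and the Cdkn2a peaks have 11 to 16.

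Sfrp4 had a region at chr13:19637976-19638252, 13.4 kb downstream in intergenic sequence, in proximal WENR-plus replicates 1 and 2 alone, with 14 and 27 reads and the motif TTTATTA 24 bp from the summit. Presence passed the test neither by site nor by medium (Fisher's exact test p = 0.455 for both, adjusted p = 0.889 and 1). A region 49 kb upstream of Sfrp4 had 11 reads in proximal WENR-plus replicate 1. Sfrp1, the remaining member of the family, had no peak in its gene body or flanks in any of the 12 lists.

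The regions of Sox17, Gata5 and Rassf1 were upstream of the genes. Sox17 had a region at chr1:4538426-4539026, 41.3 kb upstream in intergenic sequence, with 18 reads in proximal WENR-minus replicate 1 and 19 reads in distal WENR-minus replicate 3 and in no WENR-plus library (medium, Fisher's exact test p = 0.455, adjusted p = 1). Gata5 had a region at chr2:180343342-180343519, 8.71 kb upstream, with 15 reads in proximal WENR-minus replicate 1, and its 101 bases were 64.4% GC. Mgmt had no region in its gene body of 236 kb or the flanks, and its locus of 336 kb was the longest of the 9.

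Rassf1 alone had a region called in every library of a group and in no library of the others. The region at chr9:107516277-107516548, 35.2 kb upstream in an intron of the calcium channel subunit gene Cacna2d2, was found in the 3 proximal WENR-plus libraries. The summit had 13, 22 and 10 reads in replicates 1 to 3, at percentiles of 26.1, 79.1 and 8.24, and it held TTTATGG 6 bp and TTTATTG 22 bp from the summit. The reads of replicates 1 and 3 were close to the fewest of any peak in those lists, 10 and 9. Of all 35518 regions tested, 8.12% were called in all 3 proximal WENR-plus and no distal WENR-plus library, and 1.28% in all 3 proximal WENR-plus and no proximal WENR-minus library. Both shares are for looser patterns than that of Rassf1, each set against a single other group. The region did not pass the test by site (Fisher's exact test p = 0.182, adjusted p = 0.81) or by medium (p = 0.182, adjusted p = 1). The proximal WENR-plus lists held 32033, 42192 and 13592 peaks, and in lists shortened to equal length the region was called in 0 libraries. The part of list length in this pattern was not tested.

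**Figure D5:**
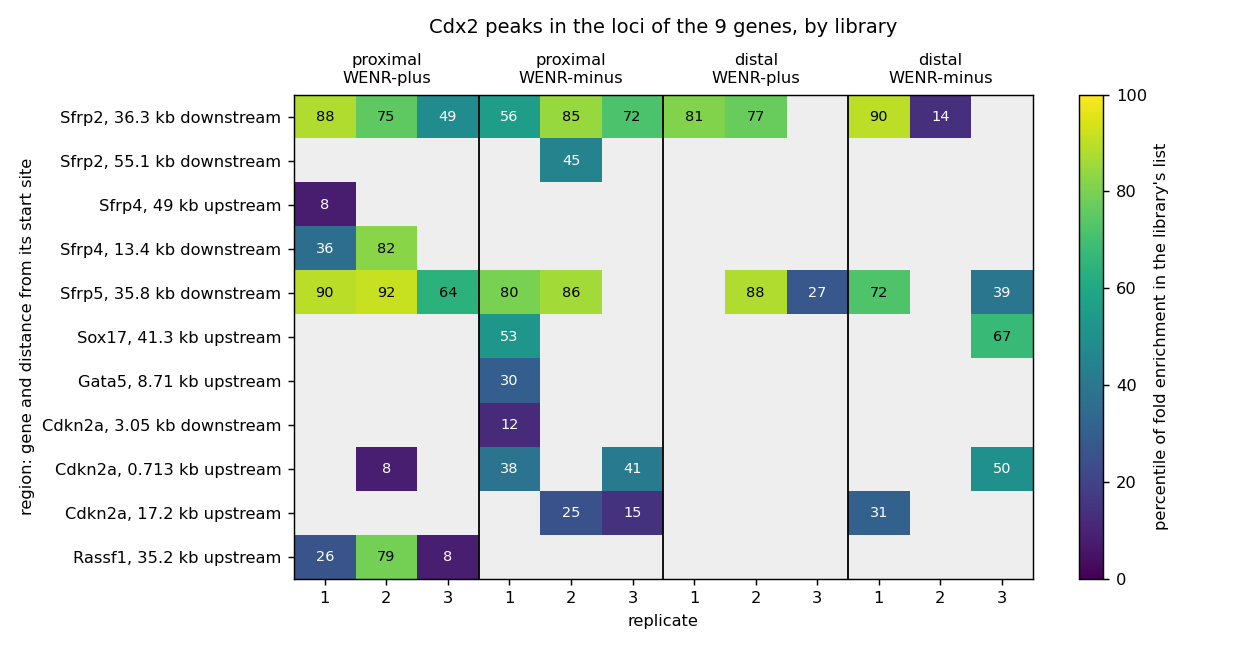
Percentile of fold enrichment within the library's own list (colour and number, 0 to 100) for each of the 11 regions (rows) in each of the 12 libraries (columns, by group and replicate), with grey where no peak was called and the higher value where a library had more than 1 peak. Sfrp2 and Sfrp5 fill 10 and 9 columns, Rassf1 fills the 3 proximal WENR-plus columns, and 4 regions fill 1.

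No other member region was called in all 3 libraries of a group and in none of the group set against it. The shares of all tested regions were 0.259% for distal over proximal in WENR-plus, 3.53% for proximal over distal and 0.577% for distal over proximal in WENR-minus, 0.206% for WENR-minus over WENR-plus in proximal organoids, and 0.222% for WENR-plus over WENR-minus and 0.709% for WENR-minus over WENR-plus in distal organoids. By Fisher's exact test over 6 against 6 libraries, 0 of the 7 member regions tested had an unadjusted p under 0.05 by site, beside 5.24% of all regions, and 0 by medium, beside 0.189%. With loci widened to 100 kb 1 of 17 regions had an unadjusted p under 0.05 by site (Fisher's exact test p = 0.0152, adjusted p = 0.289) and 0 by medium. After Benjamini-Hochberg adjustment 0 member regions and 0% of all regions passed by either. The smallest p that 6 against 6 libraries allow in Fisher's exact test is 0.00216, and too few regions reached it for any to pass. The smallest adjusted p of any region was 0.114 by site and 1 by medium.

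In the full lists the 9 loci held more peaks on average in proximal than in distal libraries. Proximal WENR-plus libraries had 5, 5 and 3 peaks (mean 4.33 ± 1.15, SD, n = 3), proximal WENR-minus libraries 6, 4 and 4 (4.67 ± 1.15), distal WENR-plus libraries 1, 2 and 1 (1.33 ± 0.577) and distal WENR-minus libraries 3, 1 and 3 (2.33 ± 1.15). Every proximal WENR-plus library thus had more than any distal WENR-plus library. The same held for all peaks of the lists, at 13592 to 42192 in proximal and 5608 to 13371 in distal WENR-plus libraries. Per 10000 peaks of the list the groups were at 1.65 ± 0.516, 2.72 ± 0.705, 1.55 ± 0.214 and 2.17 ± 1.42, so that the difference between proximal and distal organoids in WENR-plus medium was smaller than the SD of either group. In lists shortened to equal length the difference between proximal and distal means was 0.33 peaks in WENR-plus and −0.33 in WENR-minus medium, against 3 and 2.33 in the full lists. These sums were not tested, and the part of list length in them was not tested either.

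Counts for other lists of genes, chosen with earlier results of these data known, stand beside those of the members as a description. Of 8 intestinal genes known as Cdx2 targets, such as Hnf4a and Cdh17, 7 had a promoter peak, all 7 in at least 6 libraries and 5 in all 12, which the choice of this list partly fixed. Of 7 other CIMP markers, the genes whose methylation defines the CpG island methylator phenotype, 2 had a promoter peak in any library and 1 in at least 6. Of 25 other genes known for promoter methylation in colorectal tumours 8 had one in any library and 1 in at least 6, and of 7 other secreted Wnt antagonists none did, although all 7 had a region in the locus. Cdkn2b is among the 25, and its promoter peak is the region chr4:89311560-89311905, which is also counted in the Cdkn2a locus. The median number of regions per 100 kb was 0.94 for the members, 1.72 for the CIMP markers, 1.54 for the Wnt antagonists, 2.13 for the other methylated genes and 6.22 for the Cdx2 targets.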

How the data were processed

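The members and the lists of other genes were chosen with earlier results of these data known. Tools named in the submitters' processing notes are Trimmomatic 0.39 for trimming, Bowtie2 2.4.5 for alignment to mm10, SAMtools 1.13 for the removal of duplicates and MACS2 2.2.7.1, with which the authors called each library against its own input at a q-value of 0.01. The deposited lists give, per peak, a score (not used further), a fold ratio over background, and −log10 p-value and −log10 q-value. They hold no read counts and no depth.

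Overlapping peaks of the 12 libraries (1 bp or more) formed 1 region, located by the summit of its peak with the highest fold percentile. Fold percentiles were taken within each list. The whole number of reads at each summit was recovered from the fold, (pileup + 1)/(background + 1), and the Poisson p-value, and 99.7% to 100% of peaks per library were solved to within 0.002 in −log10 p. Presence was tested per region with a two-sided Fisher's exact test and Benjamini-Hochberg adjustment over the 35518 regions in at least 2 libraries, after tests on simulated data. The study's read-based comparison needs alignments, which were not used here. Promoters were 3 kb to either side of a GENCODE vM21 start site. Sequences came from the RefSeq GRCm38 genome and promoter tables. All members were named. A region was named where it lay at a promoter or was in at least 6 libraries, otherwise the member's region in the most libraries, and the thinner regions were added after their values were seen. Python 3.11.15, pandas 2.3.3, scipy 1.17.1 and pysam 0.24.0 were used.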

Additional observations from a re-analysis of the deposited data

How the results depend on the processing

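No member region that could be tested passed by site or medium under any alternative: 2 regions were tested in lists shortened to equal length and in loci of 10 kb, 5 at a −log10 q of at least 5, 17 in loci of 100 kb, 7 with summits chained within 250 bp, 11 among all regions and 5 or 6 with a replicate number left out. The count of member regions past the threshold was also 0 with a replicate block, by site and by medium (smallest p of a member 0.25 for both), 0 for organoid lines (0.1 by site, the smallest p that 3 against 3 allow, and 0.25 by medium) and 0 for presence per locus, a unit chosen after seeing the data. Of all regions or loci tested, 0 passed by site or medium in any of these settings, so that the zeros are not particular to the members. With a replicate number left out, 0.0286 was the smallest p of any region by Fisher's exact test. The labels number replicates without saying that a number is a mouse, and deviations from group means correlated at −0.017 to 0.298 between the media of a site and number, over 0.1 in 4 of 6 pairs, with 8 of 12 libraries closest to their own number.

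The difference in peaks per library in the loci, 3 for proximal minus distal in WENR-plus, was 0.33 in lists of equal length, 1.67 at a −log10 q of at least 5, 1 within 10 kb, 6.67 within 100 kb and 0.11 per 10000 peaks. The difference in WENR-minus, 2.33, was −0.33 in lists of equal length and 0.56 per 10000 peaks. WENR-plus minus WENR-minus, −0.33 in proximal organoids, was 2.67 within 100 kb and −1.07 per 10000 peaks, and −1 in distal organoids was 0 in lists of equal length and −0.62 per 10000 peaks. Without replicate 1, 2 or 3 in turn these 4 differences ran from 2.5 to 3.5, 2 to 3, −1 to 0 and −2 to −0.5, with −2 without replicate 2. The cause of these changes was not tested. The region counts with a motif were 5 within 50 bp and 9 within 100 bp. The count of members with a promoter peak was 1 under every alternative, with Cdkn2a called in 1 library in lists of equal length and 3 at a −log10 q of at least 5. In lists of equal length Sfrp2 and Sfrp5 were each called in 7 libraries, and at a −log10 q of at least 5 each in 9, where Rassf1 was called in 1. The fewest reads at a called summit were 8 to 11, and read depth is not given by the lists.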
